A study of Arabidopsis thaliana with 22 samples.

Results

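The 5 genes described here were grouped as cell cycle and endoreduplication regulators of *Arabidopsis thaliana*, and each was measured by 1 probe set of the Affymetrix ATH1 array. They were chosen by name: SIAMESE (SIM, AT5G04470), RETINOBLASTOMA-RELATED (RBR1, AT3G12280), PROLIFERA (PRL, AT4G02060), CDKC;2 (AT5G64960) and CYCT1;4 (AT4G19600). They are 5 of the 22746 probe sets of the array that are not controls, and all 5 were among the 16349 that passed a filter on low values. PRL lay above the filter's limit, the 40th percentile of an array, in 17 of 22 arrays, and the other 4 genes did so in all 22.

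Leaf hairs (trichomes) of *Arabidopsis* are single epidermal cells that leave the mitotic cycle and then copy their DNA several times without dividing, a process called endoreduplication. SIM is an inhibitor of cyclin-dependent kinases (CDKs) that holds trichomes out of mitosis, and plants that lack it form trichomes of several cells. RBR1 is the plant retinoblastoma homologue, which binds E2F transcription factors and represses the genes of S phase. PRL is a subunit of the MCM complex, the helicase that opens DNA at replication origins. CDKC;2 and CYCT1;4 belong to a different branch: a CDKC kinase and a T-type cyclin form a complex that acts on RNA polymerase II during transcription.

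The arrays came from 2 lines of seedlings in which a trichome regulator was fused to the hormone-binding part of the glucocorticoid receptor (GR), so that dexamethasone (DEX) sets it free to act. GL1-GR plants were *gl1* mutants that carried pGL1::GL1-GR, and GL3-GR plants were *gl3 egl3* double mutants that carried pGL3::GL3-GR. Each line received DEX or, as Mock, ethanol, and was collected after 4 h and 24 h, which gave 22 arrays in 8 groups, with 3 arrays per group except for the 2 per group of GL3-GR at 24 h. Each fusion ran from its own gene's promoter in a mutant without the native factor, and RNA was taken from green tissue of many seedlings pooled, in which trichomes are a small share of the cells. In such RNA fewer cells of a type and less RNA per cell cannot be told apart, and without DEX-treated plants lacking a fusion among these arrays, the fusion's action cannot be told apart from that of DEX. The labels give only a sample number within a group, so p-values measure the spread between these samples. The methods call the plant materials biologically independent.

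The arrays fell into 4 sets, 1 for each line and time, that looked as if normalized apart from each other. Their median log2 values were 5.96 to 6.06 for GL1-GR at 4 h, 4.45 to 4.58 for GL1-GR at 24 h, 3.62 to 3.72 for GL3-GR at 4 h and 4.67 to 4.72 for GL3-GR at 24 h. The GL3-GR arrays of 4 h stood apart: the root mean square SD within groups was 0.55 there, against 0.21, 0.29 and 0.19 in GL1-GR at 4 h, GL1-GR at 24 h and GL3-GR at 24 h. RCA, the activase of the carbon-fixing enzyme of leaves, lay above at least 98.98% of an array's probe sets on all 22 arrays. Of further photosynthetic genes looked at later, PSBY, PSAN, LHCB4.1, PSAE-1 and PSBW lay above at least 93.8% on every array. LHCB4.2 went down to 67.3% in GL1-GR at 24 h, and LHCB4.3 to 44.8% in GL3-GR at 4 h. The root hair expansins EXPA7 and EXPA18 lay near the floor and were not tested. Of 5 trichome markers, GL2, TTG2, GL1 and MYB23 were near the floor and not tested, so a trichome signal was not detectable with these 4. The GL1 probe set thus gives no check of the labels, and no probe set was named GL3 here. EGL3 was tested and stood above the floor in GL1-GR at 4 h, with means of 5.32 (DEX) and 5.04 (Mock). It lay above the filter's limit in that set only. Its DEX and Mock means were 2.15 and 2.16 in GL1-GR at 24 h and 2.63 and 2.73 in GL3-GR at 4 h. In GL3-GR at 24 h both were 2.14.

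None of the 5 genes differed between DEX and Mock at an adjusted p under 0.05 in either line at either time. The changes are differences of mean log2 value, DEX minus Mock, tested with limma over all 22 arrays and adjusted over all 16349 probe sets. In this fit, which pools the spread of all sets, the 2 changes with the smallest p were both in GL3-GR plants at 4 h, the set with the widest spread. There CDKC;2 was 0.61 lower with DEX (SE 0.16, limma adjusted p = 0.0841), and CYCT1;4 was 0.92 higher with DEX (SE 0.34, limma adjusted p = 0.178). In the other 3 sets the 95% intervals of both genes held 0. SIM, RBR1 and PRL had intervals that held 0 in every set in this fit. With each set's own arrays alone, the intervals that left out 0 were those of PRL in GL1-GR at 4 h (0.0769 to 0.326) and of CDKC;2 in GL3-GR at 4 h (−1.17 to −0.0565), and neither passed the adjustment.

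**Figure D1:**
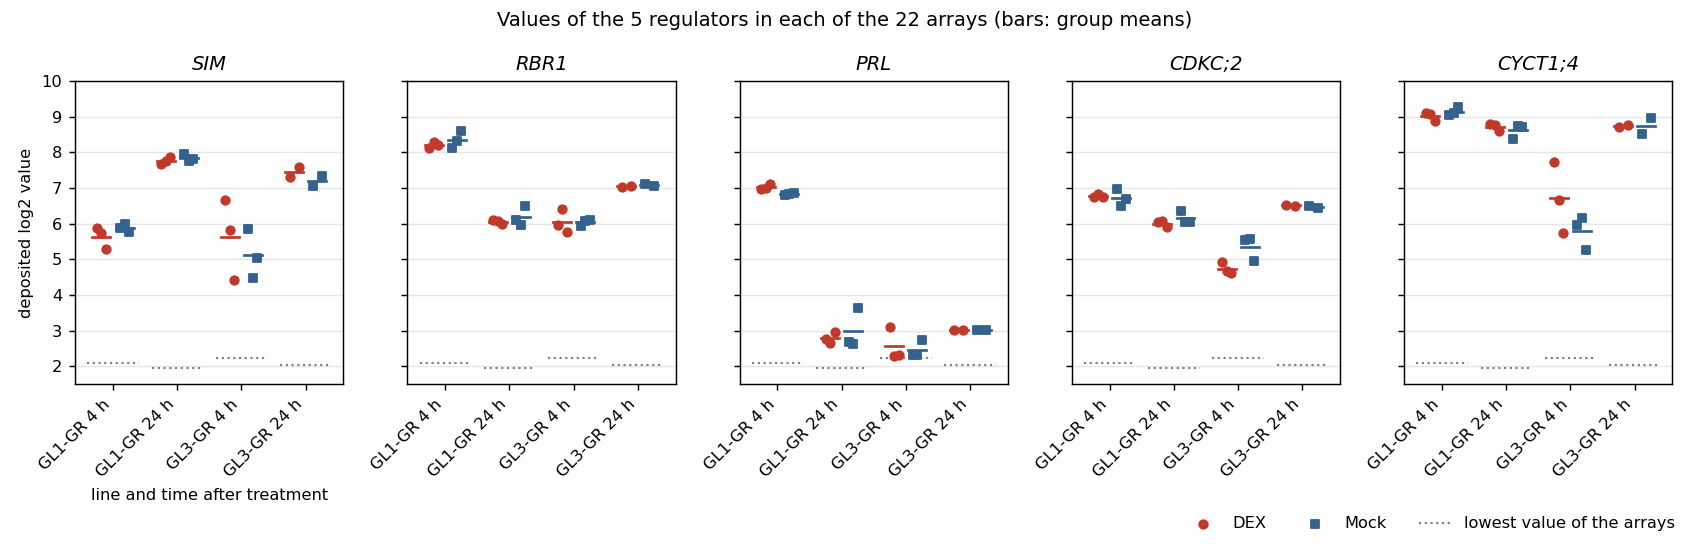
Log2 value (vertical axis) of each of the 5 probe sets in each of the 22 arrays, with DEX left of Mock within each line and time. Points are samples and horizontal lines are group means. DEX and Mock overlap in most panels, and the GL3-GR arrays of 4 h scatter most, with SIM between 4.43 and 6.65 and CYCT1;4 between 5.25 and 7.73.

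SIM, the inhibitor of mitotic CDK activity, lay above at least 45.3% of the probe sets of every array. In GL1-GR plants at 4 h its log2 values were 5.87, 5.73 and 5.30 in DEX samples 1 to 3, against 5.88, 5.99 and 5.76 in Mock samples 1 to 3. DEX sample 3 was the lowest of the 6, and the other DEX samples overlapped with Mock. The change was −0.24 (SE 0.39, 95% interval −1.07 to 0.59, limma adjusted p = 1.00).

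At 24 h in GL1-GR plants SIM had log2 values of 7.69, 7.75 and 7.88 with DEX and of 7.94, 7.77 and 7.82 with Mock. The 6 samples formed 1 narrow, overlapping range. The change of −0.07 had a 95% interval of −0.90 to 0.76.

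The SIM values of GL3-GR plants at 4 h were 6.65, 5.81 and 4.43 with DEX, against 5.84, 4.47 and 5.05 with Mock. DEX samples gave both the highest and the lowest value of the set. The means were 5.63 ± 1.12 with DEX and 5.12 ± 0.69 with Mock (SD, n = 3 each), and the change of 0.51 (SE 0.39, limma adjusted p = 0.551) was smaller than the spread among the DEX samples. It was 0.00206 without DEX sample 1 and 1.12 without DEX sample 3, so single libraries set its size.

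At 24 h in GL3-GR plants SIM stood at 7.30 and 7.60 with DEX and at 7.07 and 7.34 with Mock. Both treatments spanned a like range and overlapped. The change was 0.25 (SE 0.48, 95% interval −0.77 to 1.27). With each set's own arrays the interval was −0.36 to 0.85 here and −1.13 to 2.16 in GL3-GR plants at 4 h.

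RBR1, the repressor of E2F, had the narrowest range of changes, between −0.14 and 0.01. In GL1-GR plants at 4 h it had log2 values of 8.13, 8.30 and 8.21 with DEX and of 8.13, 8.33 and 8.59 with Mock. Mock sample 3 was the highest and the rest overlapped. The change was −0.14 (SE 0.16, 95% interval −0.48 to 0.21).

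At 24 h in GL1-GR plants the RBR1 values were 6.10, 6.08 and 6.004 with DEX and 6.10, 5.95 and 6.49 with Mock, where sample 3 was again the highest. The change was −0.12 (95% interval −0.46 to 0.22). Without that Mock sample it was 0.03, so its sign rested on 1 array.

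In GL3-GR plants RBR1 values at 4 h were 5.95, 6.41 and 5.77 with DEX and 5.95, 6.07 and 6.10 with Mock. The DEX samples lay on both sides of Mock, and the change was 0.01 (SE 0.16, 95% interval −0.33 to 0.35). At 24 h the values were 7.02 and 7.07 with DEX and 7.11 and 7.07 with Mock. Both DEX samples lay below both Mock samples, and 31.7% of all tested probe sets were separated in one direction or the other in this set. The nearest pair agreed to the second decimal, and the change was −0.04 (95% interval −0.46 to 0.37).

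PRL, the MCM subunit, was the gene whose signal differed most between sets, so its comparisons rest on different amounts of signal. In GL1-GR plants at 4 h it lay between 4.72 and 5.02 above the lowest value of its array. The values were 6.98, 7.01 and 7.12 in DEX samples and 6.82, 6.84 and 6.85 in Mock samples. All 3 DEX samples lay above all 3 Mock samples, as 12.6% of all tested probe sets did in one direction or the other in this set.

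The PRL change at 4 h in GL1-GR plants was 0.20, or 1.15-fold higher with DEX (SE 0.24, 95% interval −0.30 to 0.70, limma adjusted p = 1.00). The means were 7.04 ± 0.08 with DEX and 6.83 ± 0.02 with Mock (SD, n = 3 each), a spread far below the one that limma pools over the 4 sets for this probe set. With the 6 arrays of this set alone, the SE was 0.0485, the 95% interval 0.0769 to 0.326 and the adjusted p 0.568. No alternative setting called it.

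At 24 h in GL1-GR plants PRL was close to the floor, with 2.76, 2.67 and 2.96 in DEX samples and 2.67, 2.62 and 3.65 in Mock samples. Mock sample 3 stood above the other 5, and without it the change of −0.19 (95% interval −0.69 to 0.31) became 0.15. In GL3-GR plants at 4 h the values were 3.09, 2.28 and 2.32 with DEX and 2.32, 2.32 and 2.74 with Mock. DEX sample 2 lay only 0.0165 above its array's lowest value and 3 others at most 0.0642 above theirs, where values have no order, and the change of 0.10 (95% interval −0.40 to 0.60) rested on DEX sample 1, without which it was −0.16.

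PRL in GL3-GR plants at 24 h was 3.02 in both DEX samples and 3.02 in both Mock samples. These values lay 0.967 to 0.973 above the lowest value of their arrays, and the change was −8.16e-05 (95% interval −0.61 to 0.61). All 4 samples agreed to the second decimal.

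CDKC;2, the kinase of the transcription-linked pair, had the smallest p of the 5 genes in the fit over 22 arrays. In GL3-GR plants at 4 h its log2 values were 4.94, 4.67 and 4.62 in DEX samples, against 5.55, 5.57 and 4.95 in Mock samples. All 3 DEX samples lay below all 3 Mock samples, but Mock sample 3 stood next to DEX sample 1. In this set 7.96% of all tested probe sets had groups that did not overlap.

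The kinase's means were 4.74 ± 0.17 with DEX and 5.36 ± 0.35 with Mock (SD, n = 3 each), so the level was 1.53-fold lower with DEX (change −0.61, SE 0.16, 95% interval −0.95 to −0.27). The limma adjusted p was 0.0841, and the gene ranked 308 by p in this comparison. With the 6 arrays of the set alone the 95% interval was −1.17 to −0.0565 and the adjusted p 0.960. It was 0.0161 without DEX sample 1, 0.0187 without Mock sample 3 and 0.0239 with array weights, by which limma gives noisier arrays less say. Of all 16349 tested probe sets, 1755 were called without DEX sample 1 and 1742 with array weights, against 146 as reported. Leaving out each array in turn called 65 to 1755 of them. Over the 28 alternatives the adjusted p ran between 0.0161 and 0.960 and the change between −0.81 and −0.50, so the direction held in each and the call did not.

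In the other sets the kinase moved little. The GL1-GR values at 4 h were 6.75, 6.82 and 6.75 with DEX and 6.98, 6.49 and 6.70 with Mock, where the DEX samples lay within the Mock range, and the change was 0.05 (SE 0.16). At 24 h they were 6.03, 6.08 and 5.91 with DEX and 6.36, 6.05 and 6.06 with Mock, with a change of −0.15 (95% interval −0.49 to 0.19). Mock sample 1 was the highest of those 6 and the rest overlapped.

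The GL3-GR values of the kinase at 24 h were 6.52 and 6.50 with DEX and 6.48 and 6.43 with Mock. Both DEX samples lay above both Mock samples, and the change was 0.05 (95% interval −0.37 to 0.48). This separation, too, stands beside the 31.7% of all tested probe sets that had one in this set.

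CYCT1;4, the T-type cyclin, gave the largest change of the 5 genes. In GL3-GR plants at 4 h its log2 values were 7.73, 6.66 and 5.74 in DEX samples, against 5.95, 6.17 and 5.25 in Mock samples. DEX samples 1 and 2 lay above the Mock range, and DEX sample 3 lay within it. The means were 6.71 ± 1.00 with DEX and 5.79 ± 0.48 with Mock (SD, n = 3 each), a change of 0.92 or 1.89-fold (SE 0.34, 95% interval 0.21 to 1.62).

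The limma adjusted p for this change was 0.178. With the 6 arrays of the set alone, whose own spread is wider than the pooled one, the SE was 0.55, the 95% interval −0.47 to 2.30 and the adjusted p 0.960. The adjusted p fell to 0.0188 without DEX sample 3 and to 0.0448 after quantile normalization of all arrays. Quantile normalization called 496 of all probe sets in this comparison, against 146 with the deposited values. Leaving out each array in turn called 65 to 1755 of them. The cyclin's adjusted p ran between 0.0188 and 0.960 over the alternatives, and the change between 0.41 and 1.40.

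Among the DEX samples of this set, sample 1 was the highest and sample 3 the lowest for SIM, the kinase and the cyclin alike. RBR1 was also lowest in sample 3, and PRL was highest in sample 1, with its other DEX values near the floor. The SIM and cyclin changes were smaller without DEX sample 1 and larger without DEX sample 3. The kinase's change was −0.61 with all arrays and −0.71 without DEX sample 1.

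The cyclin had smaller changes elsewhere. The GL1-GR values were 9.10, 9.09 and 8.87 with DEX and 9.05, 9.11 and 9.27 with Mock at 4 h, a change of −0.13 (95% interval −0.84 to 0.58). At 24 h they were 8.78, 8.76 and 8.61 with DEX and 8.38, 8.75 and 8.72 with Mock, a change of 0.10 (95% interval −0.61 to 0.81). Treatments overlapped at both times, with DEX sample 3 the lowest at 4 h and Mock sample 1 the lowest at 24 h.

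At 24 h in GL3-GR plants the cyclin stood at 8.72 and 8.77 with DEX and at 8.53 and 8.97 with Mock. The DEX samples lay between the Mock samples. The change was −0.01 (SE 0.41, 95% interval −0.88 to 0.86).

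**Figure D2:**
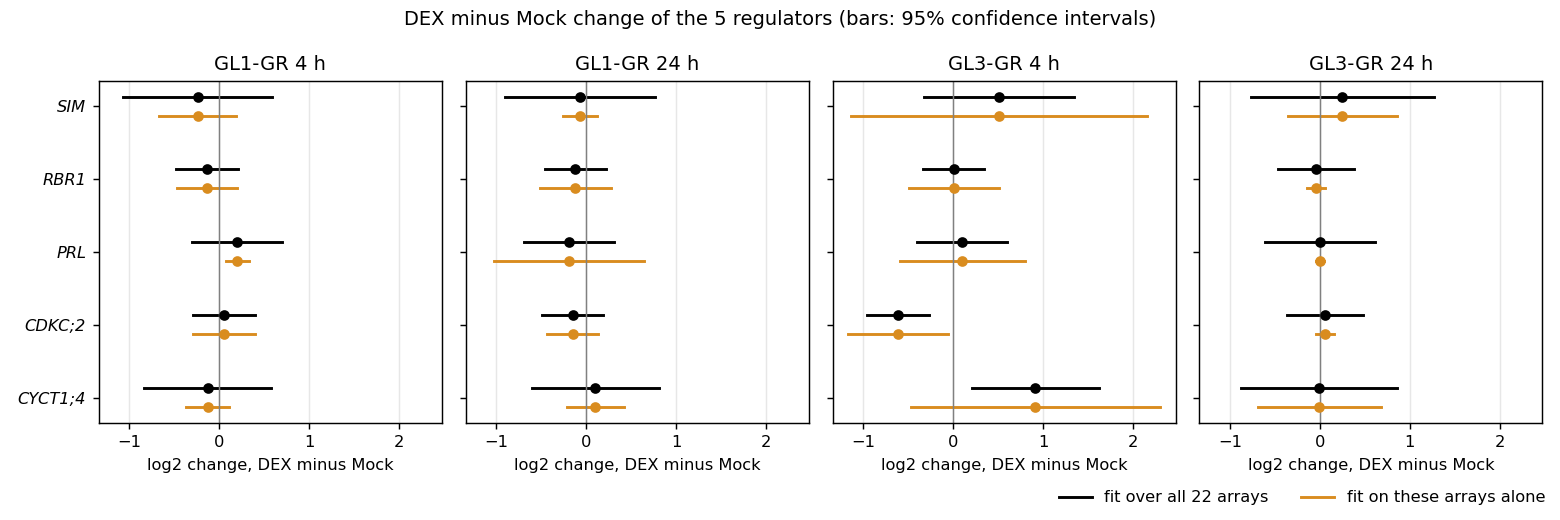
Log2 change, DEX minus Mock (horizontal axis), of each gene in each line and time, with points for the estimate. Black bars are 95% intervals of the limma fit over 22 arrays, and orange bars those of the fit on each set's own arrays. Of the black bars, only those of CDKC;2 (−0.95 to −0.27) and CYCT1;4 (0.21 to 1.62) in GL3-GR at 4 h lie clear of 0. The orange bars clear of 0 are those of PRL in GL1-GR at 4 h (0.0769 to 0.326) and CDKC;2 in GL3-GR at 4 h (−1.17 to −0.0565).

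The counts over the 5 genes were read against those over all tested probe sets. In GL1-GR plants at 4 h, 0 of 5 were called by limma, against 0.0245% of all probe sets. At an unadjusted limma p under 0.05 there were 0 of 5, against 2.78% of all. When the set's own arrays were fitted it was PRL alone, beside 1192 of all 16349 tested probe sets. In GL1-GR plants at 24 h, 0 of 5 were called, against 0% of all. At an unadjusted limma p under 0.05 there were 0 of 5, against 1.17% of all. The fit of the set's own arrays also gave 0 of 5, beside 361 of all 16349 tested probe sets. None of the genes had groups that did not overlap there, as 5.84% of all probe sets had.

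In GL3-GR plants at 4 h, 0 of 5 were called by limma, against 0.893% of all probe sets (32 higher and 114 lower with DEX). The kinase and the cyclin had an unadjusted limma p under 0.05, as 16.7% of all probe sets did. In the fit of the set's own arrays the kinase alone did, beside 557 of all 16349 tested probe sets. In GL3-GR plants at 24 h, 0 of 5 were called, against 0% of all. At an unadjusted limma p under 0.05 there were 0 of 5, against 1.36% of all. The fit of the set's own arrays also gave 0 of 5, beside 972 of all 16349 tested probe sets. The median change of the 5 genes was −0.13, −0.12, 0.10 and −8.16e-05 in GL1-GR at 4 h, GL1-GR at 24 h, GL3-GR at 4 h and GL3-GR at 24 h. The median over all probe sets was 0.00232, −0.000935, −0.06 and −0.000814 in the same order. In both GL3-GR sets the median of the 5 is PRL's own change, which was measured near the floor there, so nothing is read from it.

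Whether a gene's response differed between lines was tested directly, as the GL3-GR change minus the GL1-GR change. At 4 h, 0 of 5 genes passed (0.0306% of all probe sets did). For the CDKC kinase the difference was −0.66 (SE 0.23, 95% interval −1.15 to −0.18, limma adjusted p = 0.427). For the T-type cyclin it was 1.04 (SE 0.47, 95% interval 0.04 to 2.05, limma adjusted p = 0.526). In this fit these are the only differences between lines whose 95% interval left out 0, and 9.20% of all probe sets had an unadjusted p under 0.05 at 4 h. With the arrays of the comparison alone the cyclin's interval held 0 (−0.24 to 2.33) and the kinase's did not (−1.27 to −0.0564).

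At 4 h SIM differed between the lines by 0.75 (SE 0.56, limma adjusted p = 0.719), with intervals for it and for RBR1 (0.14) and PRL (−0.10) that held 0. With array weights the kinase's difference was −0.85 and its adjusted p 0.0226, in a range of 0.0226 to 0.939. No other of the 27 alternatives called it. Array weights called 1358 of all 16349 tested probe sets in this comparison, against 5 without them. At 24 h the differences between lines were 0.32, 0.08, 0.19, 0.21 and −0.11 for SIM, RBR1, PRL, the kinase and the cyclin. None of these 5 was called, as 0% of all probe sets were, and 0 had an unadjusted p under 0.05, against 0.765% of all.

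The response at 24 h minus the response at 4 h was tested within each line. In GL1-GR plants it ran between −0.39 for PRL and 0.23 for the cyclin, and 0 of 5 genes were called, against 0.00612% of all probe sets. At an unadjusted p under 0.05 there were 0 of 5, against 1.57% of all. In GL3-GR plants 0 of 5 were called as well, against 0.00612% of all. The kinase differed there by 0.67 (SE 0.26, 95% interval 0.12 to 1.21, limma adjusted p = 0.903), and its interval held 0 with the GL3-GR arrays alone (−0.0171 to 1.35). The kinase alone of the 5 genes had an unadjusted limma p under 0.05 there, as 5.39% of all probe sets did. The cyclin differed by −0.92 (SE 0.53, 95% interval −2.04 to 0.20). The kinase's difference had an adjusted p of 0.0494 with array weights, the lowest of its alternatives, which ran up to 1.00. Array weights called 909 of all 16349 tested probe sets in this comparison, against 1 without them.

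The level of each gene across lines and times was described without a test, because line and time coincide with the sets and a difference in level cannot be told apart from one in normalization. The deposited log2 values were therefore set beside the share of an array's probe sets that lay below the gene, which depends on order alone. Each gene is read across arrays only, since the probe sets of different genes are not on 1 scale. Ranges span the DEX and Mock arrays of a set.

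SIM lay lower in GL1-GR plants at 4 h than at 24 h on both scales. Its log2 value was 5.30 to 5.99 at 4 h and 7.69 to 7.94 at 24 h, and it stood above 45.3% to 49.8% of probe sets at 4 h and above 67.4% to 70.2% at 24 h. In GL3-GR plants the log2 value was 4.43 to 6.65 at 4 h and 7.07 to 7.60 at 24 h, but the share below it was 58.8% to 80.0% at 4 h, which spans the 61.9% to 66.1% of 24 h. An order of the 2 times in GL3-GR plants was thus seen on the deposited scale alone.

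RBR1 lay higher in GL1-GR plants at 4 h, at 8.13 to 8.59, than at 24 h, at 5.95 to 6.49. The share below it was 71.2% to 76.6% at 4 h and 56.4% to 59.0% at 24 h. In GL3-GR plants the 2 scales ran in opposite directions: the log2 value was 5.77 to 6.41 at 4 h and 7.02 to 7.11 at 24 h, whereas the share below it was 73.3% to 81.4% at 4 h and 61.9% to 62.2% at 24 h. By share RBR1 was above its 24 h values at 4 h in both lines.

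PRL was highest in GL1-GR plants at 4 h on both scales. Its log2 value there was 6.82 to 7.12, against 2.62 to 3.65 in GL1-GR at 24 h, 2.28 to 3.09 in GL3-GR at 4 h and 3.02 in GL3-GR at 24 h. The share below it was 56.9% to 60.6% in GL1-GR at 4 h and at most 46.3% in the other 3 sets, whose log2 values overlapped. It went down to 1.24% in GL3-GR at 4 h, where PRL was at the floor in part of the arrays.

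CDKC;2 changed its place with the scale. Its log2 value was 6.49 to 6.98 and 5.91 to 6.36 in GL1-GR at 4 h and 24 h, and 4.62 to 5.57 and 6.43 to 6.52 in GL3-GR at 4 h and 24 h, so GL3-GR at 4 h was the lowest set. By share below, that set was the highest, at 62.9% to 70.3%, and the other 3 sets overlapped between 54.2% and 58.7%. The DEX and Mock difference in that set lies within 1 set of arrays and does not turn on this order.

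CYCT1;4 had a high place in all sets, above 67.8% to 88.0% of probe sets. In GL1-GR plants it stood above 79.9% to 83.4% at 4 h and above 73.9% to 76.9% at 24 h, with log2 values of 8.87 to 9.27 and 8.38 to 8.78 at those times. In GL3-GR plants the range of shares at 4 h, 67.8% to 88.0%, held that of 24 h, 74.0% to 77.9%, while the log2 value was 5.25 to 7.73 at 4 h and 8.53 to 8.97 at 24 h. Only the GL1-GR order was the same on both scales.

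**Figure D3:**
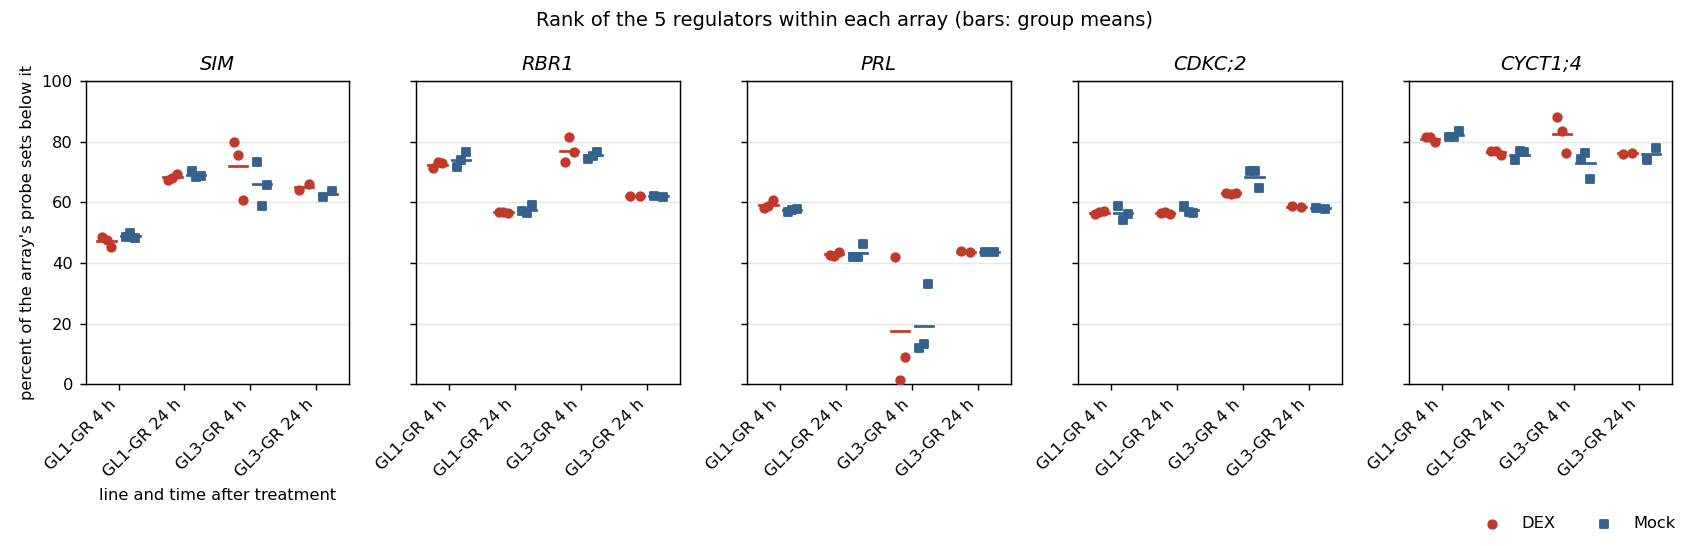
Percent of an array's probe sets that lie below each gene (vertical axis), for each array with DEX left of Mock in each line and time. RBR1 sits higher at 4 h than at 24 h in both lines, and PRL sits at 56.9% to 60.6% in GL1-GR at 4 h only.

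Other genes of these pathways were taken from lists of 93 loci, of which 31 had a probe set named by gene here and 30 probe sets were tested. None of the 30 was called in GL1-GR at 4 h or 24 h or in GL3-GR at 4 h or 24 h by limma, while 0, 1, 7 and 1 had an unadjusted p under 0.05 in those sets, beside 2.78%, 1.17%, 16.7% and 1.36% of all probe sets. Their median changes were 0.05, −0.02, −0.09 and −0.000369, near those over all probe sets. The fit of each set's own arrays called 0 as well. The lists take in 25 loci that the study names for endoreduplication, all of the 5 genes but PRL among them, of which 24 probe sets were tested and 0 called in any set.

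Of 16 CDK inhibitor genes, 6 were named: SIM, SMR2, SMR3, SMR6, SMR8 and KRP1. The largest change in any list was that of SMR6, a SIM relative, in GL3-GR plants at 4 h. SMR6 averaged 6.64 with DEX and 8.26 with Mock, a change of −1.62 (SE 0.43, limma adjusted p = 0.0830), with no overlap between DEX and Mock, as in 7.96% of all probe sets of that set. With the 6 arrays of the set alone the adjusted p was 0.960. SIM had a change of 0.51 in the same arrays. In that set SMR6 was called without DEX sample 1 (adjusted p 0.0208) and also without Mock sample 2 (adjusted p 0.0311). With SMR6, the CDKC kinase, SMR8 and FAS2 were called without DEX sample 1, 4 of the 30 probe sets of the lists. Leaving out that array called 1755 of all 16349 tested probe sets in this comparison, against 146 with all arrays. The rise in calls was thus not limited to the lists. SMR3 was called without Mock sample 1 (limma adjusted p 0.00601). Leaving out each array in turn called 65 to 1755 of all tested probe sets in this comparison.

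Next to RBR1, the only named gene of the RB and E2F list was E2FB, an activating E2F. It averaged 3.68 with DEX and 2.93 with Mock in GL3-GR plants at 4 h (change 0.75, SE 0.39, limma adjusted p = 0.342). Next to PRL, the licensing factors CDC6 and CDT1A, which load the MCM helicase, had changes of 0.33 and 0.16 in that set. None of the 3 licensing genes had an unadjusted limma p under 0.05 in any set.

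The closest relatives of the kinase and the cyclin gave smaller values in GL3-GR plants at 4 h. CDKC;1 averaged 3.46 with DEX and 3.59 with Mock, a change of −0.13 (SE 0.20). CYCT1;5 averaged 6.21 with DEX and 6.52 with Mock, a change of −0.31 (SE 0.26, limma adjusted p = 0.590). The 2 cyclins thus had values on opposite sides of 0, and the difference between them was not tested.

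Among 7 subunits of DNA topoisomerase VI, which frees DNA strands during endoreduplication, and of chromatin assembly factor 1 (CAF-1), 1 was above and 6 were below 0 in GL3-GR plants at 4 h, where 41.2% of all probe sets were above 0. MSI1, a CAF-1 subunit, averaged 6.61 with DEX and 7.01 with Mock (change −0.40, SE 0.13, limma adjusted p = 0.137). FAS2, another CAF-1 subunit, averaged 3.98 with DEX and 3.58 with Mock (change 0.40, SE 0.17, limma adjusted p = 0.255). The other lists held CYCD3;1, CDKA;1 and CYCA2;3, with changes between −0.17 and 0.27 in all sets. No B-type cyclin, APC/C activator or WEE1 probe set was named here.

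**Figure D4:**
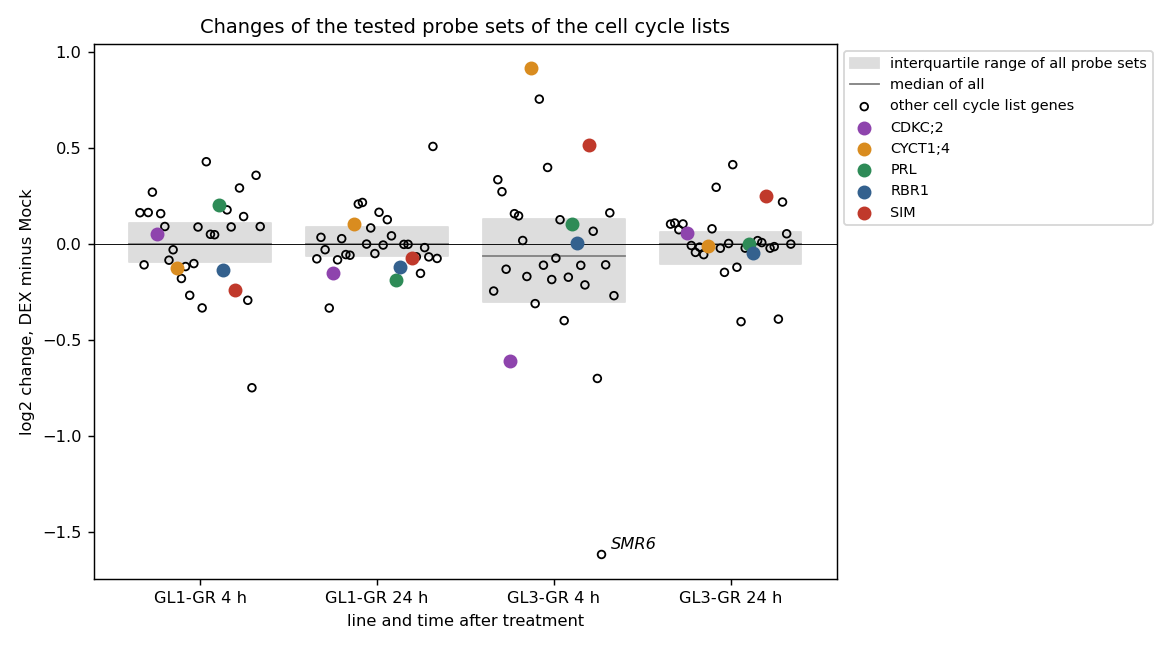
Log2 change, DEX minus Mock (vertical axis), of the tested probe sets of the cell cycle lists in each line and time, with the 5 genes marked and the interquartile range of all tested probe sets shaded. The widest scatter is in GL3-GR at 4 h, between −1.62 (SMR6) and 0.92 (the T-type cyclin).

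The genes with the pattern most like that of each regulator were found by the Pearson correlation of values scaled within each set, over 22 arrays and 9094 candidate probe sets. SIM was most like AT3G49810 (r = 0.83) and SIZ1, a SUMO ligase (r = 0.79). RBR1 was most like AT5G40830 (r = 0.84), the CDKC kinase most like AT1G35280 (r = 0.78) and the T-type cyclin most like AT3G15610 and AT3G07080 (r = 0.83 each). PRL was most like CHI (AT2G43570, r = 0.88) and ICU2, the catalytic subunit of DNA polymerase alpha (r = 0.82), although its GL3-GR values, near the floor at 4 h and almost constant at 24 h, enter this measure scaled to the same size as the rest. These are the highest of many correlations, the arrays of a set share a normalization, and no test was made.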

How the data were processed

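Total RNA from green tissues of the seedlings was hybridised to ATH1 arrays, 22 in all. The authors' deposited values are log2 expression values per probe set, made with GCRMA in R (version not given in the sources used here). This method corrects each probe for background from its base composition and brings the arrays of a run to one distribution. Probe sets without signal stay near a floor and cannot be ordered there. The floor and median differed between the 4 sets of arrays, so DEX and Mock were compared within a set. How the sets were scaled to each other stays unknown, as does centring.

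The 64 control probe sets were left out. Of the probe sets, 13436 got a locus from the platform table at GEO (its annotation can be old) and 54 from a gene list of the study that gives probe set identifiers. All table columns belonged to a sample. Probe sets above an array's 40th percentile in at least 2 arrays were tested (16349 of 22746).

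R 4.3.3 and limma 3.58.1 were used, with lmFit and eBayes on 8 groups over 22 arrays and Benjamini-Hochberg adjustment over all tested probe sets. The threshold was an adjusted p of 0.05. The study's methods used Student's t-test, which was run as an alternative and is called the methods' t-test. Other alternatives were quantile normalization, no filter, the arrays of each comparison alone, leaving out the 6 GL3-GR arrays of 4 h, array weights, a replicate block and leaving out each array. The code was tested on simulated data. The number of arrays limits the precision.

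The text names the 5 genes, for each list the genes with the highest and lowest change, the close relatives of CDKC;2 and CYCT1;4, and the probe sets most like each gene. Genes and lists were chosen with earlier results of these data known. No sequences are printed.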

Additional observations from a re-analysis of the deposited data

How the results depend on the processing

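The number of arrays limits the precision, at 2 or 3 per group, and the GL3-GR arrays of 4 h widen the pooled spread. The 5 genes gave 1125 values under alternatives, of which 7 were called: CDKC;2 and CYCT1;4 in GL3-GR at 4 h and CDKC;2 in 2 differences between responses, all named above. The other genes were called in none. Signs turned in 17 of 40 results under some alternative.

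Counts of called probe sets are given for GL1-GR at 4 h and 24 h, for GL3-GR at 4 h and 24 h, then for the line difference at 4 h and 24 h and the time difference in GL1-GR and GL3-GR. As reported they were 4, 0, 146, 0, 5, 0, 1 and 1. With array weights they were 221, 14, 1742, 36, 1358, 0, 12 and 909. With the arrays of each comparison alone they were 1, 1, 0, 0, 1, 0, 2 and 0. With the 6 GL3-GR arrays of 4 h removed they were 23 and 1 in GL1-GR at 4 h and 24 h, 7 in GL3-GR at 24 h, 1 for the line difference at 24 h and 4 for the time difference in GL1-GR. Quantile normalization gave 496 in GL3-GR at 4 h, 12 for the line difference at 4 h and 5 for the time difference in GL3-GR. Without a filter they were 10 in GL1-GR at 4 h, 8 for the line difference at 4 h and 3 for the time difference in GL3-GR. The methods' t-test called 175, 35, 75 and 111 at an unadjusted p under 0.01 and 0, 1, 0 and 0 after adjustment in the 4 DEX comparisons. It called 0 of the 5 genes in each after adjustment and 0 at p under 0.01. By this t-test PRL in GL1-GR at 4 h alone had p under 0.05, beside 839 of all 16349 tested probe sets there. The cell cycle lists had 1 call in GL3-GR at 4 h with quantile normalization and 1 with array weights, against 0. Leaving out each array in turn gave 1 to 26, 0 to 2, 65 to 1755, 0 to 2, 2 to 621, 0 to 1, 1 to 2 and 0 to 281, and 0 to 4 for the lists in GL3-GR at 4 h. The 1755, the 621, the 281 and the 4 came without GL3-GR DEX 4 h sample 1.

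Neither the labels nor the data settle whether the sample numbers pair DEX with Mock, so they were not treated as pairs. Same-numbered samples had correlated deviations of 0.03, 0.02 and 0.10 in GL1-GR at 4 h, 0.06, 0.16 and 0.35 at 24 h, and 0.28, 0.26 and 0.07 in GL3-GR at 4 h, where every sample correlated best with its own number. With the replicate block, counts were 2, 1 and 54 in GL1-GR at 4 h, GL1-GR at 24 h and GL3-GR at 4 h, 2 for the line difference at 4 h and 0 for the time difference in GL3-GR, and no call of the 5 genes changed. In GL3-GR at 24 h the correlation was −0.14, and crossing those numbers, chosen after seeing the data, gave 0 calls there and 0 for the time difference in GL3-GR.

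Signs turned as follows. With quantile normalization PRL and CYCT1;4 in GL3-GR at 24 h were 0.0132 and 0.0190, and the PRL line difference at 4 h was 0.0399. With array weights RBR1 and PRL in GL1-GR at 24 h were 0.00576 and 0.0227, and PRL in GL3-GR at 4 h was −0.125. The line differences at 24 h were −0.0503 for RBR1 and −0.0228 for PRL, and the PRL time difference in GL3-GR was 0.125. The cause was not tested.

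Leaving out each array gave these ranges where a sign turned. CDKC;2 in GL1-GR at 4 h ran between −0.0645 and 0.18. In GL1-GR at 24 h RBR1 ran between −0.23 and 0.0334, PRL between −0.37 and 0.15 and CYCT1;4 between −0.0168 and 0.17. In GL3-GR at 4 h RBR1 ran between −0.17 and 0.14 and PRL between −0.16 and 0.25. In GL3-GR at 24 h PRL ran between −0.00325 and 0.00308 and CYCT1;4 between −0.23 and 0.22. The line difference at 4 h ran between −0.0374 and 0.28 for RBR1 and between −0.36 and 0.0453 for PRL. At 24 h it ran between −0.0779 and 0.19 for RBR1, −0.15 and 0.37 for PRL and −0.33 and 0.11 for CYCT1;4. The time difference in GL1-GR ran between −0.10 and 0.17 for RBR1. In GL3-GR it ran between −0.87 and 0.25 for SIM, −0.19 and 0.13 for RBR1 and −0.25 and 0.16 for PRL.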
